A study of Mus musculus with 8 samples.

Results

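The genes described here are 44 mouse genes whose proteins make ribosomes, out of 24976 genes in the count table. They were chosen by name and by what their proteins do, over all 8 libraries, and all 44 had enough counts to be tested, as did 12742 genes in all. The lowest count of any of them in any library was 126, for Rrp12. RNA was measured in bulk from naive mouse CD8+ T cells that were activated in culture with antibodies to CD3 (2 µg per ml) and CD28 (1 µg per ml) and with IL-2 (10 ng per ml). Cells were harvested after 24 or 48 h. The libraries labelled dKO come from Cd8Cre NR4a1flox/flox NR4a2flox/flox mice, in which Cre recombinase is driven from Cd8 sequences and so aims the deletion at CD8 T cells, and the WT libraries come from their littermates. The labels state no strain, no age and no Cre or loxP allele for the littermates. Nr4a1 and Nr4a2 encode nuclear receptors that are induced when the T cell receptor is engaged. The 4 groups, dKO at 24 h, WT at 24 h, dKO at 48 h and WT at 48 h, hold 2 libraries each, and the mice or cultures behind each library are not stated in what was used here.

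Ribosome biogenesis starts in the nucleolus, where RNA polymerase I copies the ribosomal DNA into a long precursor RNA. Small nucleolar ribonucleoproteins (snoRNPs) modify and help to cut this precursor, box C/D particles by methylating riboses and box H/ACA particles by turning uridines into pseudouridines. Separate sets of assembly factors then build the small and the large subunit and escort them to the cytoplasm. Resting T cells hold few ribosomes, and activation through the T cell receptor raises ribosome production before the cells divide, with the transcription factor MYC as a known activator of many of the genes involved. The 44 genes were grouped by role into RNA polymerase I transcription and nucleolar organisation (7 genes), box C/D snoRNPs (5), box H/ACA snoRNPs (4), the small subunit (14) and the large subunit (14).

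Several properties of the libraries bear on what follows. Nr4a1 was not called lower in the libraries labelled dKO (log2 fold change 0.37 at 24 h, adjusted p = 0.880, and −0.35 at 48 h, adjusted p = 0.380, edgeR), and Nr4a2 was higher in them at both times (1.35 and 1.38, adjusted p = 0.00836 and 0.00982, edgeR). The counts of these genes therefore do not check the deletion. Counts per gene also hold reads from outside a deleted part, and why Nr4a1 and Nr4a2 were not lower was not tested. Xist, the RNA that coats the silenced X chromosome of female cells, had 0.655 to 1.67 counts per 1e6 counts (CPM) in the dKO libraries and 387 to 816 CPM in the WT libraries, while the Y-linked gene Ddx3y had 49.4 to 65.8 CPM in dKO and 0.293 to 0.735 CPM in WT. Sex and genotype label therefore cannot be told apart. Cd8a had 509 to 851 CPM. Of the CD4 or regulatory T cell markers, Cd4 had 0 to 2 and Foxp3 9 to 55 counts per library. With Zbtb7b they summed to at most 4.46 CPM of the total counts, before TMM scaling. On the same scale the lists of B cell, myeloid, NK and red or stromal cell markers each summed to at most 9.04 CPM. Total counts ran from 5000952 to 21686236 per library. Replicate 2 of WT at 48 h was the deepest library, and this group had the lowest correlation between its replicates across genes (r = 0.965, against 0.985 to 0.989 in the other 3 groups). All other levels are CPM scaled by the TMM factors.

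The 44 genes together took 1.44% and 1.39% of all counts in the dKO libraries at 24 h, against 1.26% and 1.32% in WT. At 48 h their share was 1.23% and 1.25% in dKO, against 1.07% and 1.05% in WT. The Wilson 95% intervals of these shares, which cover counting error only, did not overlap between the genotypes: the lowest bound in dKO and the highest in WT were 1.38% and 1.33% at 24 h, and 1.23% and 1.08% at 48 h. Scaled by the TMM factors, the summed level was 13082 and 12882 CPM in dKO against 12210 and 11300 CPM in WT at 24 h. At 48 h the scaled sums were 12777 and 12877 CPM in dKO against 12807 and 12016 CPM in WT. The genotypes thus did not overlap at 24 h on either scale, and at 48 h they overlapped on the TMM scale, where WT replicate 1 lay between the dKO libraries. The genes with the highest levels weigh most in these sums. At 48 h Npm1 had 4129 and 3967 CPM in dKO against 3956 and 3077 CPM in WT. Ncl had 1715 and 1724 CPM in dKO against 1634 and 2134 CPM in WT. Dkc1 had 795 and 923 CPM in dKO against 1703 and 1258 CPM in WT. In bulk RNA, fewer cells that express a gene and less RNA per cell cannot be told apart.

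At 24 h none of the 44 genes passed the test for genotype, and most fold changes were small and above 0. The log2 fold change was above 0 for 38 of 44 genes (86.4%, against 51.2% of all genes) and ranged from −0.15 (Dkc1) to 0.33 (Nolc1), with a median of 0.15 against 0.01 over all 12742 genes tested. The quasi-likelihood test of edgeR called 0 of the 44 genes at an adjusted p below 0.05, where it called 0.432% of all genes, and DESeq2 also called 0. At an unadjusted p below 0.05 edgeR again gave 0 of the 44, against 6.98% of all genes. Both dKO libraries lay above both WT libraries for 27 of the 44 genes, where this held for 24.3% of all genes, and both lay below for 0, where it held for 20.6% of all genes. With total counts as the scale the 27 became 15. The shares of all genes above hold for the TMM scale and were not counted on that of total counts.

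At 48 h some of the genes separated by genotype, in both directions. Rrp9, Mrto4, Nop16, Imp4, Wdr74 and Noc4l were higher in dKO, by 1.43-fold to 1.86-fold, and Tcof1 was lower, at 0.531 of its WT level. These were 6 of 44 genes called higher, where 3.19% of all genes were, and 1 called lower, where 8.04% were (edgeR, adjusted p below 0.05). The median log2 fold change was 0.18, against −0.03 over all genes, and 31 of 44 genes were above 0 (70.5%, against 48.2% of all genes). Both dKO libraries lay above both WT libraries for 24 genes (28.3% of all genes) and below both for 3, Tcof1, Ddx21 and Dkc1 (28.6% of all genes). The counts called depended on the libraries in the fit, which has 1 estimate of spread for all groups. With the 4 libraries of 48 h alone, 0 of the 44 were called, where 46 of 12137 genes were higher and 398 lower. Without dKO replicate 1 or 2 of 24 h, which are not part of this difference, the calls were lost and the median log2 fold change was 0.19. Without dKO replicate 1 or 2 of 48 h they were lost too, with medians of 0.19 and 0.15. The calls over all genes also fell in these fits. Without WT replicate 1 of 48 h the median log2 fold change was 0.21, with 28 of 44 genes above 0. Without WT replicate 2 of 48 h it was 0.23, with 37 of 44 above 0. Without WT replicate 1 or 2 of 24 h it was 0.19. With total counts as the scale edgeR called 16 higher and 1 lower, where 1615 of 12742 genes were higher and 916 lower. With no filter it called 12 higher and 5 lower, where 940 of 22981 genes were higher and 2022 lower.

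**Figure D1:**
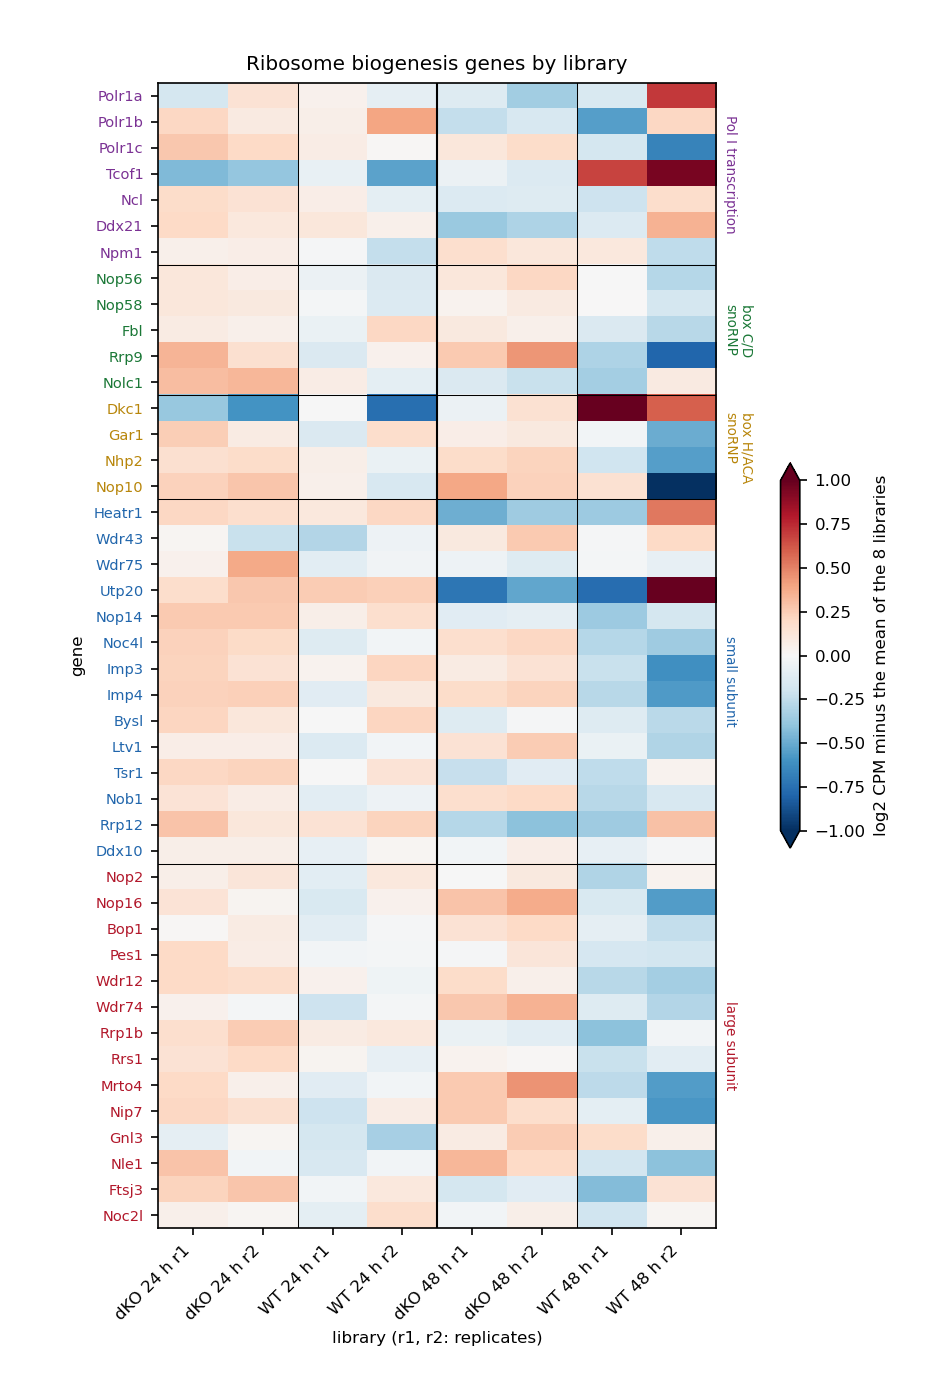
Log2 CPM of the 44 genes (rows, by role) in the 8 libraries (columns), each gene minus its mean over the libraries; red is above and blue below that mean, and differences past 1 take the end colours. The WT 48 h replicate 2 column departs from replicate 1 for many genes, with Utp20 and Polr1a high and Nop10 low in it, and Tcof1 and Dkc1 are high in both WT libraries of 48 h.

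**Figure D2:**
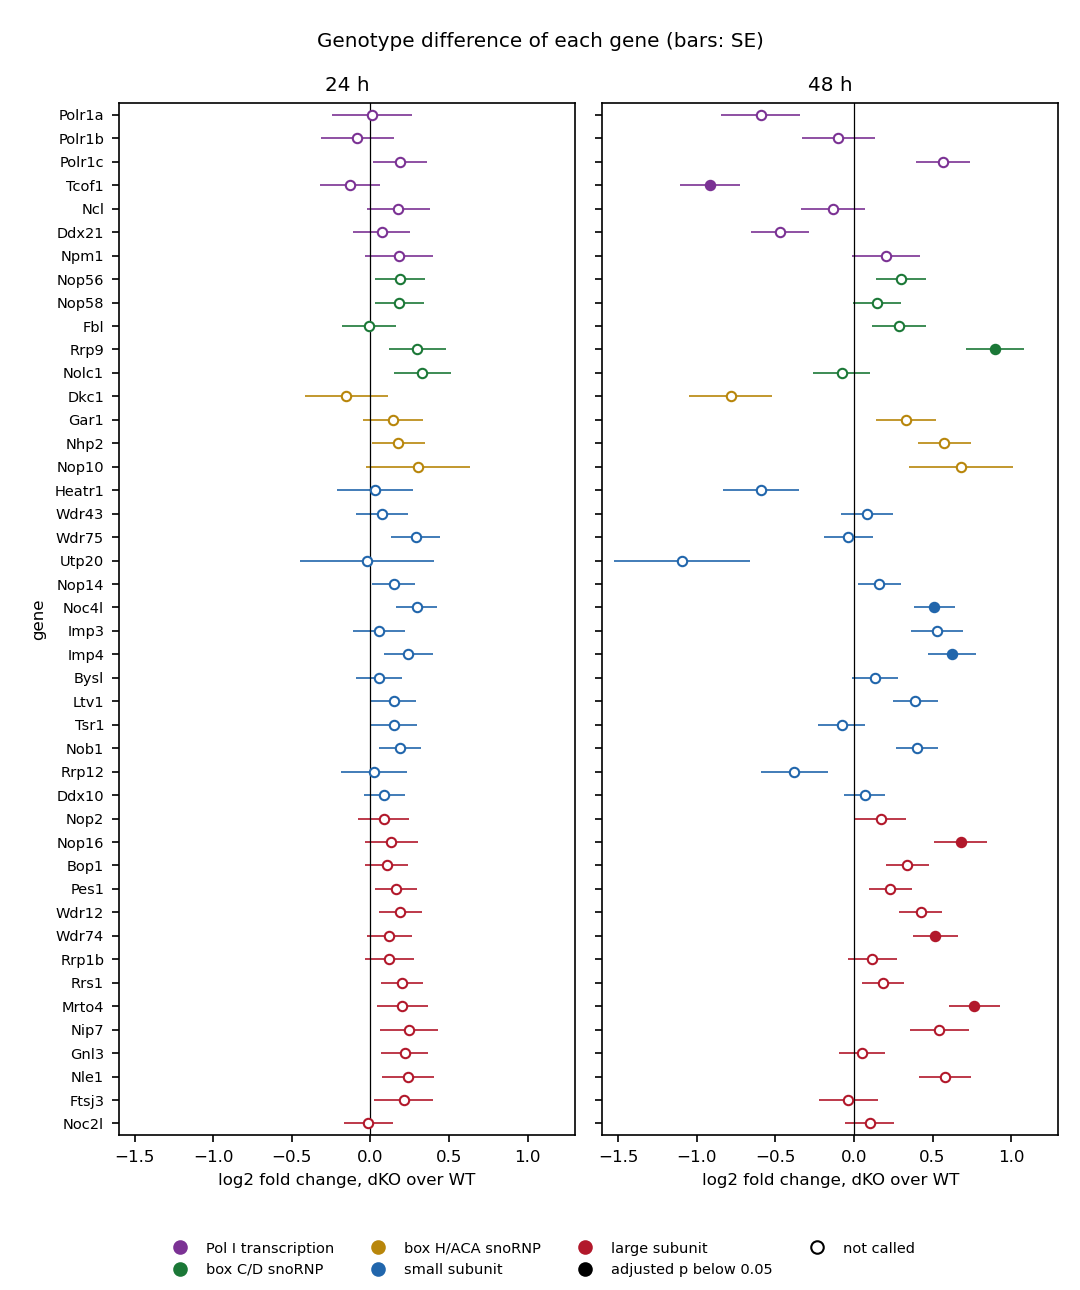
Log2 fold change of dKO over WT for each gene at 24 h (left) and 48 h (right), with bars for 1 SE and filled points for an adjusted p below 0.05 (edgeR). At 24 h 38 of 44 points lie above 0 and none is filled, and at 48 h 7 points are filled, 6 of them above 0 and Tcof1 below.

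Among the genes of RNA polymerase I transcription, Tcof1 alone was called at 48 h. Tcof1 encodes treacle, a nucleolar scaffold that keeps RNA polymerase I factors at the ribosomal DNA. It had 276 and 261 CPM in dKO at 48 h, against 458 and 554 CPM in WT, and 211 and 220 CPM in dKO at 24 h, against 272 and 198 CPM in WT. The WT libraries of 48 h were thus the highest, with no overlap, and at 24 h the WT libraries lay on both sides of the dKO ones. The log2 fold change was −0.91 ± 0.19 (SE) at 48 h (adjusted p = 0.0174) and −0.13 ± 0.19 at 24 h (adjusted p = 0.933, edgeR).

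The polymerase subunits themselves were not called. Polr1a, the largest catalytic subunit, had 51.5 and 44.3 CPM in dKO at 48 h against 50.7 and 92.2 CPM in WT. Its WT replicate 1 lay within the range of dKO and its WT replicate 2 far above it. Polr1c, a subunit shared with RNA polymerase III, had 84.7 and 88.9 CPM in dKO against 69.2 and 49.1 CPM in WT at 48 h, a difference of 0.56 ± 0.17 on the log2 scale (adjusted p = 0.0630, edgeR). Polr1b, the other large subunit, had 31.9 and 33.8 CPM in dKO and 25.6 and 43.4 CPM in WT at 48 h. The differences of the subunits thus had both signs, with log2 fold changes of −0.59, −0.10 and 0.56 for Polr1a, Polr1b and Polr1c.

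The nucleolar proteins Ncl, Npm1 and Ddx21 were not called at 48 h either. Ncl, nucleolin, had 1715 and 1724 CPM in dKO at 48 h against 1634 and 2134 CPM in WT. Npm1, nucleophosmin, had 4129 and 3967 CPM in dKO against 3956 and 3077 CPM in WT, 0.20 ± 0.22 on the log2 scale (adjusted p = 0.539, edgeR). Ddx21, an RNA helicase tied to both transcription and processing of the precursor, had 207 and 217 CPM in dKO against 244 and 342 CPM in WT. Its libraries did not overlap, yet the difference of −0.47 ± 0.18 did not pass (adjusted p = 0.112, edgeR).

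Of the 5 box C/D genes, Rrp9 was called higher in dKO at 48 h. Rrp9 binds the U3 RNA, which guides the first cuts of the precursor rather than a methylation, and it had 117 and 132 CPM in dKO at 48 h against 78.6 and 56.3 CPM in WT. At 24 h it had 124 and 109 CPM in dKO against 88.4 and 101 CPM in WT. The dKO libraries were above the WT libraries at both times. The log2 fold change was 0.90 ± 0.18 at 48 h (adjusted p = 0.0170) and 0.30 ± 0.18 at 24 h (adjusted p = 0.870, edgeR). Rrp9 lies at chr9:106475963-106485424 on the plus strand (GRCm38/mm10, GENCODE M21), where its exons overlap those of Parp3 on the opposite strand, so its count may hold reads of Parp3.

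The core proteins are the methyltransferase fibrillarin, encoded by Fbl, and its partners Nop56 and Nop58. Fbl had 629 and 611 CPM in dKO at 48 h against 531 and 486 CPM in WT. Nop56 had 336 and 357 CPM in dKO against 309 and 254 CPM in WT, and Nop58 had 339 and 351 CPM in dKO against 331 and 292 CPM in WT. All 3 had both dKO libraries above both WT libraries at 48 h, with log2 fold changes of 0.29, 0.30 and 0.15 that did not pass the test (adjusted p = 0.265, 0.220 and 0.530, edgeR). Nolc1, a chaperone of snoRNPs, had 321 and 305 CPM in dKO and 282 and 380 CPM in WT, so that WT lay on both sides of dKO.

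None of the 4 box H/ACA genes was called by genotype at 48 h with edgeR on all 8 libraries, where Dkc1 had a negative and the other 3 a positive difference. Dkc1 encodes dyskerin, the pseudouridine synthase, and had 795 and 923 CPM in dKO at 48 h against 1703 and 1258 CPM in WT. At 24 h it had 638 and 548 CPM in dKO against 828 and 492 CPM in WT. The difference was −0.78 ± 0.27 at 48 h and did not pass (adjusted p = 0.0818, edgeR). DESeq2, and the edgeR fits with no filter, without either WT library of 24 h or without WT replicate 2 of 48 h, called it lower. Dkc1 is the 1 gene of the 44 on the X chromosome, and the dKO and WT libraries differ in Xist and Y-linked RNA as given above; the part of this in its level was not tested.

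Gar1, Nhp2 and Nop10, the small proteins that complete the particle, had positive differences. Nhp2 had 388 and 399 CPM in dKO at 48 h against 297 and 233 CPM in WT, a difference of 0.57 ± 0.17 (adjusted p = 0.0575, edgeR). It was called higher by DESeq2, and by edgeR with no filter, with total counts as the scale and without WT replicate 1 of 48 h. Gar1 had 190 and 194 CPM in dKO against 177 and 128 CPM in WT. Nop10 had 248 and 222 CPM in dKO against 210 and 84.3 CPM in WT. For all 3 the dKO libraries were above both WT libraries, and Nop10 was lowest in WT replicate 2: its log2 difference was 0.68 with both WT libraries, 0.17 without replicate 2 and 1.46 without replicate 1.

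Of the 14 small-subunit genes, Imp4 and Noc4l were called higher in dKO at 48 h. Imp4 is part of the U3 particle that joins the small-subunit processome, and it had 122 and 126 CPM in dKO at 48 h against 88.8 and 72.9 CPM in WT. At 24 h it had 127 and 127 CPM in dKO against 99.6 and 115 CPM in WT. Noc4l, a nucleolar factor needed for the small subunit in yeast, had 105 and 108 CPM in dKO against 76.4 and 72.8 CPM in WT at 48 h, and 109 and 106 CPM in dKO against 85.0 and 91.2 CPM in WT at 24 h. In both genes the dKO libraries lay above the WT libraries at both times. Their 48 h log2 fold changes were 0.62 ± 0.15 and 0.51 ± 0.13 (adjusted p = 0.0319 and 0.0378, edgeR). DESeq2 called Imp4 and did not call Noc4l, whose call was lost in 9 of 15 alternatives. The exons of Imp4 overlap those of Gm28306 on the opposite strand, so its count may hold reads of that gene.

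Imp3, the partner of Imp4, had 132 and 138 CPM in dKO against 107 and 81.6 CPM in WT at 48 h (0.53, adjusted p = 0.0676, edgeR). Nob1, the endonuclease that makes the final cut of the small-subunit RNA, had 56.0 and 57.0 CPM in dKO against 41.0 and 44.4 CPM in WT (0.40, adjusted p = 0.0771, edgeR), and Ltv1, an assembly factor of late small subunits, had 69.2 and 74.8 CPM in dKO against 59.6 and 50.8 CPM in WT (0.39, adjusted p = 0.0964, edgeR). These 3 did not overlap at 48 h but missed the threshold. Nop14, also a processome factor, did not overlap either (99.1 and 101 CPM in dKO against 83.4 and 94.9 CPM in WT).

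Large scaffold proteins of the small-subunit processome gave negative differences at 48 h that rested on a single WT library. Utp20 had 24.7 and 28.5 CPM in dKO at 48 h against 24.1 and 86.4 CPM in WT, and Heatr1, which links polymerase I transcription to processing, had 40.2 and 44.04 CPM in dKO against 43.9 and 81.6 CPM in WT. WT replicate 1 lay within the dKO range for Heatr1 and just below it for Utp20. The log2 fold changes of −1.09 and −0.59 did not pass (adjusted p = 0.116 and 0.125, edgeR), and without WT replicate 2 they were 0.15 and −0.05, while without WT replicate 1 they were −1.71 and −0.97. Polr1a, given above, was −0.59 with both WT libraries, −0.08 without replicate 2 and −0.96 without replicate 1. The other small-subunit genes are Wdr43 and Wdr75, which act early with Heatr1, the helicase gene Ddx10, and Bysl, Tsr1 and Rrp12, which act on later precursors. These 6 had log2 fold changes between −0.38 (Rrp12) and 0.13 (Bysl) and their libraries of 48 h overlapped.

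Of the 14 large-subunit genes, Mrto4, Nop16 and Wdr74 were called higher in dKO at 48 h, and 13 of 14 had a positive difference, with a median of 0.29. Mrto4 holds the place of a stalk protein during large-subunit assembly, and it had 223 and 253 CPM in dKO at 48 h against 154 and 126 CPM in WT. At 24 h it had 213 and 192 CPM in dKO against 171 and 182 CPM in WT, so dKO lay above WT at both times. Its log2 fold change was 0.76 ± 0.16 at 48 h (adjusted p = 0.0182) and 0.20 at 24 h (adjusted p = 0.881, edgeR), and the annotation holds 2 pseudogenes named after it with which reads may be shared.

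Nop16, a nucleolar protein needed for the large subunit in yeast, had 134 and 143 CPM in dKO at 48 h against 98.7 and 74.7 CPM in WT (0.68 ± 0.17, adjusted p = 0.0323, edgeR). Wdr74, which takes part in remodelling of nucleolar large-subunit precursors, had 114 and 120 CPM in dKO against 86.3 and 77.0 CPM in WT (0.52 ± 0.14, adjusted p = 0.0461, edgeR). DESeq2 did not call it, nor did edgeR on genes with a mean of at least 50 counts, and 11 of 15 alternatives lost its call. At 24 h the libraries of both genes overlapped, with 121 and 112 CPM in dKO against 99.1 and 113 CPM in WT for Nop16.

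Pes1, Bop1 and Wdr12 form the PeBoW complex, which is needed for processing of large-subunit RNA. Wdr12 had 124 and 113 CPM in dKO at 48 h against 90.2 and 86.2 CPM in WT, Bop1 had 90.7 and 94.1 CPM in dKO against 77.1 and 69.3 CPM in WT, and Pes1 had 92.6 and 101 CPM in dKO against 83.0 and 82.2 CPM in WT. In all 3 the dKO libraries lay above the WT libraries at 24 h as well as at 48 h. Their log2 fold changes at 48 h were 0.42, 0.34 and 0.23, and the test called none of the 3 (adjusted p = 0.0708, 0.118 and 0.255, edgeR). Nip7 (0.54) and Nle1 (0.58), which act at later steps on large-subunit precursors, also lay above WT in both dKO libraries without passing (adjusted p = 0.0828 and 0.0524, edgeR). The methyltransferases of Nop2 (0.17) and Ftsj3 (−0.04) and the assembly factors of Noc2l (0.10), Rrp1b (0.12) and Rrs1 (0.19) were not called, and of these 5 Rrs1 had both dKO libraries above both WT libraries. Gnl3, nucleostemin, had 140 and 158 CPM in dKO and 151 and 138 CPM in WT, and overlapped.

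**Figure D3:**
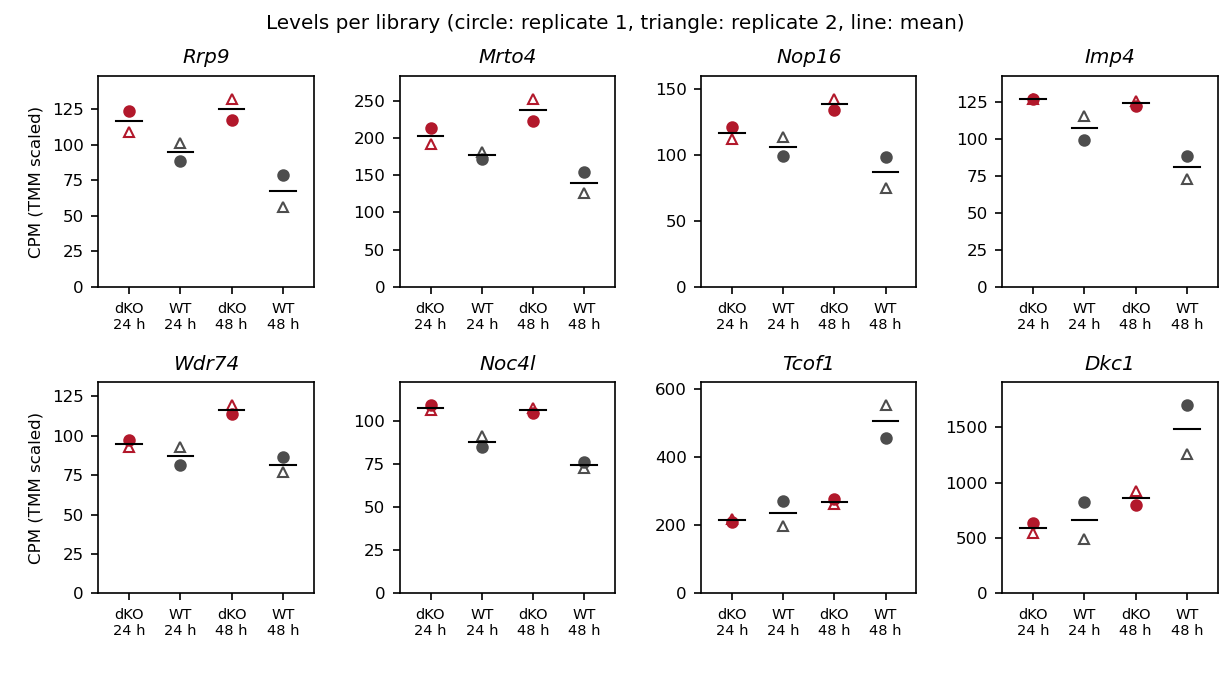
CPM (TMM scaled, axis from 0) of the 7 genes called at 48 h and of Dkc1 in each library; circles are replicate 1, triangles replicate 2 and lines the mean of 2 libraries, with dKO in red and WT in grey. The first 6 genes have both dKO libraries above both WT libraries at 48 h, and Tcof1 and Dkc1 have both below.

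Over both times together, Rrp9, Mrto4, Imp4 and Noc4l were called higher in dKO and Tcof1 lower. These are 4 of 44 genes higher (2.28% of all genes) and 1 of 44 lower (5.52% of all genes; edgeR, adjusted p below 0.05). The log2 fold changes averaged over the times were 0.60 ± 0.13 for Rrp9, 0.48 ± 0.11 for Mrto4, 0.43 ± 0.11 for Imp4, 0.40 ± 0.09 for Noc4l and −0.52 ± 0.13 for Tcof1 (adjusted p = 0.0276, 0.0326, 0.0398, 0.0306 and 0.0445). With total counts as the scale 9 were called higher and 0 lower, where 680 of 12742 genes were higher and 610 lower. The calls depended on which libraries were in the fit, for these genes and for all genes. With 1 library left out, the median log2 fold change of the 44 genes ran from 0.14 to 0.18. Both dKO libraries stood above both WT libraries at 24 h and again at 48 h for 19 of the 44 genes, against 11.7% of all genes. The 19 became 12 with total counts as the scale, where the share over all genes was not counted. The 19 include Nop56, Nop58, Nhp2, Nop10, Pes1, Bop1 and Wdr12 beside the 4 genes called higher.

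Whether the genotype difference itself changed between the times was tested as an interaction, and 0 of the 44 genes passed, as did 0% of all genes (edgeR, adjusted p below 0.05). At an unadjusted p below 0.05 there were 3 genes with a positive and 1 with a negative interaction, against 12.4% of all genes in either direction, and DESeq2 called 0 at its adjusted p. A call at 48 h beside none at 24 h is therefore not a shown difference between the times. The interaction was 0.60 for Rrp9 and −0.78 for Tcof1 (adjusted p = 0.392 and 0.369, edgeR). The median interaction of the 44 genes was 0.07 with all libraries, and it depended on the libraries and the scale. It was 0.03 without dKO replicate 2 of 48 h and 0.16 without dKO replicate 1 of 48 h, the ends of the range with 1 library left out. With total counts as the scale it was 0.27, where the median of all genes was 0.15. Whether genes were called depended on the libraries in the fit, for these genes and for all genes.

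Between 48 and 24 h in WT 2 of the genes passed the test, and both rose. In WT, 33 of 44 genes had a negative log2 difference, with a median of −0.14 against 0.00 over all genes, and 0 were called lower, where 3.50% of all genes were. Tcof1 and Dkc1 were called higher at 48 h, 2 of 44, where 7.87% of all genes were. This comparison shares the WT libraries of 48 h with the genotype difference at 48 h. Tcof1 had 458 and 554 CPM at 48 h against 272 and 198 CPM at 24 h (1.10 ± 0.19, adjusted p = 0.00461). Dkc1 had 1703 and 1258 CPM at 48 h against 828 and 492 CPM at 24 h (1.17 ± 0.27, adjusted p = 0.0198, edgeR). With the 4 WT libraries alone in the fit both lost their calls, and Dkc1 also lost its call without WT replicate 2 of 24 h or without any 1 of the dKO libraries. The median of the 44 genes was −0.12 with WT replicate 1 of 48 h left out and −0.21 with replicate 2 left out. With total counts as the scale, the median of all genes moves to −0.36. On that scale 19 of the 44 were called lower, where 2641 of 12742 genes were.

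In the libraries labelled dKO, 0 of the 44 genes were called between 48 and 24 h, where 3.63% of all genes were. At an unadjusted p below 0.05 edgeR gave 0 higher and 6 lower, against 23.3% of all genes in either direction, and DESeq2 called 0. The largest negative differences were those of Utp20 (24.7 and 28.5 CPM at 48 h against 46.2 and 49.4 CPM at 24 h, −0.84, adjusted p = 0.279) and Heatr1 (40.2 and 44.04 CPM at 48 h against 65.2 and 63.4 CPM at 24 h, −0.61, adjusted p = 0.177, edgeR). For both genes the libraries of 48 h lay below those of 24 h. Nolc1 had 321 and 305 CPM at 48 h against 440 and 448 CPM at 24 h, and Ddx21 had 207 and 217 CPM at 48 h against 308 and 288 CPM at 24 h, again with no overlap and no call (adjusted p = 0.145 and 0.154, edgeR). The spread in this test is shared with the WT libraries of 48 h. With the 4 dKO libraries alone in the fit, edgeR called 7 genes higher and 13 lower, where 2388 of 12195 genes were higher and 2158 lower. The median log2 difference of the 44 genes was −0.04 with all 8 libraries. It was −0.02 without WT replicate 1 or 2 of 48 h. Of the dKO libraries of 48 h, it was 0.01 without replicate 1, with 25 of 44 genes above 0, and −0.06 without replicate 2, with 18 above 0. Without dKO replicate 1 of 24 h it was −0.02 and without replicate 2 of 24 h −0.04.

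The wider list of 104 other ribosome biogenesis genes behaved as follows. At 24 h edgeR and DESeq2 called 0, where edgeR called 0.432% of all genes. The unadjusted p of edgeR was below 0.05 for 1 gene higher and 0 lower, against 6.98% of all genes in either direction. The median log2 fold change was 0.12, against 0.01 over all genes. At 48 h the median was 0.15, against −0.03 over all genes. In dKO 4 of 104 were higher, where 3.19% of all genes were, and 5 of 104 lower, where 8.04% were. These counts depended on which libraries were in the fit, as did the calls over all genes. The 4 higher were Dimt1 (0.81), a methyltransferase of small-subunit RNA, Rcl1 (0.75), a processome factor, Znhit3 (0.86), which helps to assemble box C/D snoRNPs, and Eif6 (0.51), which keeps new large subunits from joining small ones. The lowest p among the 5 lower belonged to Dhx37 (−1.14), a helicase that releases U3, Lsg1 (318 and 305 CPM in dKO against 607 and 640 CPM in WT), a GTPase of cytoplasmic large-subunit maturation, Wdr46 (−0.99), a processome scaffold, and Aatf (−0.63). The other was Nol6, named after its values were seen. Between 48 and 24 h in WT, a comparison that shares the WT libraries of 48 h, 5 were called higher (Dhx37, Lsg1, Wdr46, Aatf and Nol6, by 1.50, 1.35, 1.25, 0.64 and 0.70 on the log2 scale), where 7.87% of all genes were, and 1 lower (Rcl1, −0.68), where 3.50% were. Between the times in dKO edgeR called 0, where it called 3.63% of all genes, and DESeq2 called 1 higher. Unadjusted p values below 0.05 in edgeR numbered 7 for higher and 10 for lower, against 23.3% of all genes in either direction. Over both times 2 of the 104 were called higher (Dimt1 and Znhit3; 2.28% of all genes) and 3 lower (Dhx37, Lsg1 and Wdr46; 5.52% of all genes). For the interaction edgeR and DESeq2 called 0. The unadjusted p of edgeR was below 0.05 for 2 positive and 8 negative values, against 12.4% of all genes in either direction. With total counts as the scale the calls of these 104 genes became 25 higher and 3 lower at 48 h, 11 higher and 3 lower over both times, and 3 higher and 39 lower between 48 and 24 h in WT. Over all 12742 genes these counts were, in the same order, 1615 and 916, 680 and 610, and 725 and 2641.

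Tcof1 and Dkc1 moved across the libraries with genes known from other tissues. The summed level of Csrp3, Ropn1, Odf4 and Tnp2, known from muscle or testis, was 7905 and 7585 CPM in dKO at 48 h against 17298 and 16622 CPM in WT. At 24 h it was 4734 and 4668 CPM in dKO against 7186 and 4578 CPM in WT. Tcof1 and Dkc1 likewise had their highest levels in both WT libraries of 48 h, and at 24 h in WT replicate 1. So did Dhx37, with 622 and 586 CPM in dKO at 48 h against 1342 and 1323 CPM in WT, and 389 and 390 CPM in dKO at 24 h against 568 and 375 CPM in WT. These 4 genes were picked because earlier results of these data pointed to them, and their part in the levels of Tcof1, Dkc1 and Dhx37 was not tested.

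The difference between the WT replicates at 48 h followed the length of the transcript, and so did the genotype difference. The median absolute log2 difference between replicates over the 44 genes was 0.062 in dKO and 0.129 in WT at 24 h, and 0.086 in dKO and 0.293 in WT at 48 h. In WT at 48 h, replicate 2 minus replicate 1 ran from −1.32 for Nop10 to 1.83 for Utp20. Across the 44 genes this difference had r = 0.70 and rho = 0.72 with the log2 length of the principal transcript in GENCODE, which was 1109 bases for Nop10 and 8821 bases for Utp20. Over 11842 genes with a length the values were 0.45 and 0.50, and in the other 3 groups r lay between −0.15 and 0.28 over the 44 genes. The genotype difference at 48 h had r = −0.65 and rho = −0.69 with length over the 44 genes, and r = −0.34 and rho = −0.45 over the 11842 genes. Over the 44 genes it had r = −0.32 when the dKO mean was set against WT replicate 1 alone and −0.72 against replicate 2 alone, and at 24 h it had r = −0.30. Over the 11842 genes these values were −0.11, −0.44 and −0.12. Genes share libraries and are not independent, so these values are descriptions.

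Split at the middle by length, the 22 genes with the shorter transcripts (924 to 2702 bases) had 22 positive differences at 48 h with a median of 0.39. The 22 with the longer transcripts (2785 to 10012 bases) had 9 positive and 13 negative differences with a median of −0.06. Against WT replicate 1 alone the shorter genes had 21 positive differences of 22 (median 0.30) and the longer 16 of 22 (median 0.12). Against WT replicate 2 alone the shorter had 22 of 22 (median 0.52) and the longer 6 of 22 (median −0.24). Of the genes called higher, Mrto4 (930 bases), Wdr74 (1204), Rrp9 (1586), Nop16 (1756) and Noc4l (2075) are among the shorter and Imp4 (5836) among the longer, and Tcof1 (4529) and Dkc1 (2804) are among the longer. These lengths belong to the best ranked transcript, the longest where ranks were equal, which need not be the form expressed here. The part of transcript length in the genotype differences was not tested. Rrp9, Mrto4, Nop16, Imp4, Noc4l and Tcof1 kept their calls at 48 h without WT replicate 2, with log2 fold changes of 0.67, 0.63, 0.50, 0.49, 0.48 and −0.76 in that order, and Wdr74 (0.44) lost its call.

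**Figure D4:**
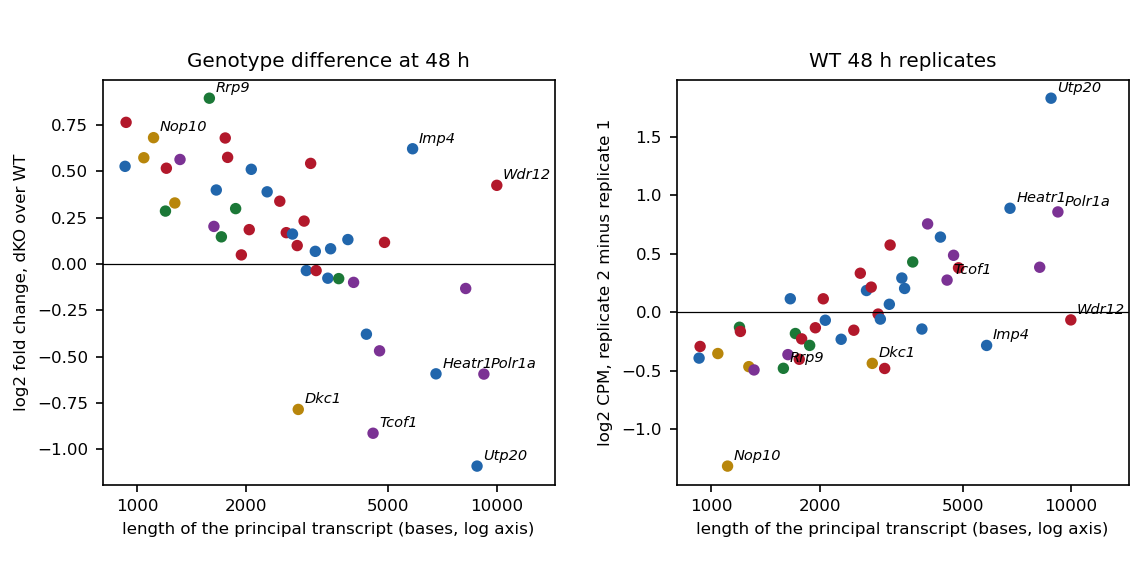
Length of the principal transcript (log axis) against the log2 fold change of dKO over WT at 48 h (left) and against log2 CPM of replicate 2 minus replicate 1 in WT at 48 h (right), with 1 point per gene, coloured by role as in the plot of fold changes. On the left the points fall with length (r = −0.65) and on the right they climb (r = 0.70), with Utp20 and Nop10 at the ends of the right panel.

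The E-box CACGTG, which MYC and related factors can bind, was looked for in the promoters of the genes because many of them lay on the same side of 0 and MYC is a known activator of such genes. RefSeq promoters of GRCm38.p6 (250 bases before to 50 after the start) were matched for 38 of the 44 genes (all but Tcof1, Npm1, Fbl, Rrp12, Bop1 and Rrs1), and 8 of the 38 (21.1%) hold the motif. The wider list had it in 16 of 83 (19.3%), and all genes in 2187 of 27025 (8.09%). These 27025 are all genes of the promoter set, expressed in these cells or not. The share over the 12742 genes tested was not counted, so the 8.09% is not a background of expressed genes. The motif reads the same on both strands. It is shown in capitals, in a window of up to 30 bases of the gene's strand written 5′ to 3′, for each of the 8.
Imp4: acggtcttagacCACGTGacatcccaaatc
Nop2: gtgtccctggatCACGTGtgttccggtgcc
Pes1: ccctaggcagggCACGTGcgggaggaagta
Wdr43: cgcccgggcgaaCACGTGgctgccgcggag
Nle1: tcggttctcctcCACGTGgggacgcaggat
Tsr1: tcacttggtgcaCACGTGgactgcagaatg
Ltv1: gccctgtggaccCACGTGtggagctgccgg
Utp20: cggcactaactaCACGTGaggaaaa
The windows lie at chr1:34439696-34439725 on the plus strand for Imp4, chr6:125131811-125131840 on the plus strand for Nop2, chr11:3963965-3963994 on the plus strand for Pes1 and chr17:71616220-71616249 on the plus strand for Wdr43. They lie at chr11:82908355-82908384 on the minus strand for Nle1, chr11:74898092-74898121 on the plus strand for Tsr1, chr10:13193092-13193121 on the minus strand for Ltv1 and chr10:88826765-88826789 on the minus strand for Utp20.

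Of these 8 genes Imp4 was called at 48 h, and the log2 fold changes of the 8 ran from −1.09 (Utp20) to 0.62 (Imp4). Imp4, Nop2, Pes1, Wdr43, Nle1 and Ltv1 were above 0, and Tsr1 (−0.08) and Utp20 below. Utp20 changed sign without WT replicate 2 of 48 h, as given above. A match is a description of the letters and not of a bound site. The part of MYC in the genotype differences was not tested. Myc had 150 and 160 CPM in dKO at 48 h against 140 and 112 CPM in WT, and 146 and 142 CPM in dKO at 24 h against 163 and 172 CPM in WT. Its log2 fold change was 0.30 at 48 h and −0.22 at 24 h and passed at neither time (adjusted p = 0.206 and 0.880, edgeR).

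The 44 genes lie on 18 chromosomes. The exons of 20 of them overlap another gene, 18 of these on the opposite strand, and whether the counting used strand is not given in the sources used here. Among the pairs are Nhp2 with Rmnd5b, Heatr1 with Lgals8, Dkc1 with Mpp1 and Wdr12 with Carf. A snoRNA gene lies within 7 of the 44, among them Nop56, which holds 5, and Nop58, which holds 4.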

How the data were processed

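Bulk RNA of activated CD8+ T cells was measured in 8 libraries, 2 in each of 4 groups. The authors deposited whole-number read counts per gene symbol. Per the submitters' processing notes, cutadapt 1.18, Bowtie2 2.2.5 and mm10 were used. How reads were counted (program, annotation, strand, molecular identifiers) is not given in the sources used here. A table name hints at reads from 5′ ends of RNA, in which case a count would not scale with transcript length. An entry with no name equals the total of each column (50.0% of the column sum) and was left out.

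R 4.3.3 with edgeR 4.0.16 gave quasi-likelihood F tests of the counts, with all 8 libraries in 1 fit, a mean per group, TMM scaling and filterByExpr at a minimum count of 10, which kept 12742 genes. The fit had 4 residual and 5.76 prior degrees of freedom and a common dispersion of 0.0246. The 6 comparisons were the genotypes at each time and averaged over the times, the interaction, and time within each genotype. A call is a Benjamini-Hochberg adjusted p, over all genes tested, below 0.05. Tests were two-sided, and an SE is the size of the log2 fold change divided by the root of its F value. P-values reflect only how these libraries spread, which may be technical. Log2 CPM for plots and correlations used a prior count of 2. Values in every library are given for up to 4 genes per role, and more where a complex is described; of the wider list up to 4 called genes per comparison and direction with the smallest p are named. Shares of counts have Wilson intervals (95%).

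Alternatives were RLE scaling, total counts, DESeq2 1.42.0, no filter or a mean of at least 50 counts, the replicate block, fewer libraries in the fit, and leaving out each library. Setting the dKO mean against single WT libraries and the split by length were chosen after seeing the data. Gene positions and principal transcripts came from GENCODE M21, which held all 44 genes. The transcript used was the best ranked in the annotation, and the longest where ranks were equal. It need not be the form expressed here. The script was tested on simulated data. The genes and lists were chosen with earlier results of these data known.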

Additional observations from a re-analysis of the deposited data

How the results depend on the processing

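The lowest count of any of the 44 genes was 126, and each group has 2 libraries. RLE scaling left every count of calls of the 44 genes as reported. Other settings also moved the calls over all genes, so the counts below are not results about these genes alone. With DESeq2, 2 of the 44 were lower in dKO at 48 h, and 1 of the 104 wider genes was higher at 48 h in dKO. Requiring a mean of at least 50 counts gave 3 wider genes lower at 48 h in WT. Without a filter, 12 of the 44 were higher and 5 lower in dKO at 48 h, 8 and 3 over both times, 1 had a negative interaction and 2 were lower at 48 h in dKO. For the wider genes these counts were 14 and 8, 10 and 6, and 1, with 3 higher and 2 lower at 48 h in dKO and 2 lower in WT. Over all 22981 genes without a filter, 940 were higher and 2022 lower in dKO at 48 h, and 727 and 1537 over both times. Negative interactions numbered 159 over all genes. Between the times 880 genes were higher and 769 lower at 48 h in dKO, and 574 were lower in WT. Total counts as the scale moved the median of all genes to 0.15 at 48 h. On that scale 16 of the 44 were higher in dKO at 48 h, 9 higher and 0 lower over both times, and 19 lower at 48 h in WT. Both dKO libraries then lay above both WT libraries for 15 of the 44 at 24 h and for 12 at both times. The share of all genes with such a separation was not counted on that scale. For the wider genes total counts gave 25 higher and 3 lower at 48 h and 11 higher over both times. They gave 3 higher and 39 lower in the WT course and 2 lower in the dKO course. Over all 12742 genes they gave 1615 higher and 916 lower at 48 h, and 680 and 610 over both times. In the WT course 725 genes were higher and 2641 lower, and in the dKO course 143 and 596. With only the 4 libraries compared in the fit, 0 of the 44 were called by genotype at 48 h or in the WT course, and 7 were higher and 13 lower in the dKO course; of the wider genes 0 were higher and 3 lower at 48 h, 0 were called in the WT course, and 16 were higher and 20 lower in the dKO course.

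Leaving out 1 library in turn gave, for the 44 genes, 0 to 18 higher and 0 to 7 lower at 48 h, and the same ranges over both times. It gave 0 to 10 positive and 0 to 8 negative interactions, 1 to 5 higher and 0 to 11 lower in the WT course, and 0 to 1 higher and 0 to 9 lower in the dKO course. For the wider genes it gave 0 to 36 higher and 0 to 18 lower at 48 h, 0 to 37 and 0 to 13 over both times, 0 to 19 and 0 to 17 interactions, 3 to 20 higher and 0 to 24 lower in the WT course, and 0 to 12 and 0 to 11 in the dKO course. A lone library is then assumed to vary like the other groups. The calls over all genes moved in these fits as well, so the ranges are not results about these genes alone. Of the 14 genes followed singly at 48 h across the alternatives, Utp20 changed sign at 48 h, to 0.15 without WT replicate 2, and was −1.71 without WT replicate 1. Over all 44 genes, 37 were above 0 at 48 h without WT replicate 2, against 31 with all libraries. At 24 h 0 of the 44 genes were called in any of these fits. Same-numbered libraries of different groups deviated together with r between −0.08 and 0.17, so the numbers were not taken to pair them; with the replicate number as a block, 4 of the 44 were higher and 1 lower in dKO at 48 h, 3 higher and 0 lower over both times. Apart from leaving out a library, the cause of these shifts was not tested.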
